A study of Rattus norvegicus with 46 samples.

Results

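The genes described here encode the mitochondrial respiratory chain, the ATP synthase, the machinery that builds iron-sulfur clusters, mitochondrial iron and heme transport, and the regulators of mitochondrial gene expression, in the duodenal villus of rats that differ in iron status. The members were 40 genes listed by symbol, and the brightest probe set over the villus arrays stood for each gene. Of these 40, 37 had a probe set in the probe-to-gene table, and Ndufa10, Cycs and Fdxr had none there and were not analysed here. All 37 passed the filter on dim probe sets, among 26517 of 31042 probe sets that did. In all, the arrays named 14217 genes by a probe set with 1 symbol. They comprised 10 of 11 listed complex I subunits, all 4 of complex II, 4 of complex III, 4 of complex IV, 2 of the ATP synthase (complex V), 7 of 8 iron-sulfur assembly genes, 2 mitochondrial iron and heme transporters, 3 regulators and 1 electron transfer flavoprotein gene.

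Complexes I, II and III pass electrons from NADH and succinate to cytochrome c through chains of iron-sulfur clusters and hemes, complex IV hands them to oxygen, and complex V uses the proton gradient to make ATP. The clusters are built in the matrix, where the desulfurase Nfs1 supplies sulfur, Iscu is the scaffold, and Hscb, Glrx5 and Isca1 help to deliver the finished cluster. Iron enters through carriers such as mitoferrin 1 (Slc25a37). In the villus, enterocytes arise in the crypt and mature as they move to the tip, and the duodenum is where dietary iron is absorbed.

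Total RNA was measured on Affymetrix arrays from a 1-cm piece of duodenum cut across the crypt-villus axis, with the upper and lower ends of the villus, here called top and bottom, as separate arrays of each rat. Of the Wistar (+/+) rats, which were 1 month old at the start, 4 control rats ate a normal diet and 4 iron-deficient rats ate a low-iron diet for 4 weeks while 2 to 3 ml of blood was drawn at intervals of 3 days. A further 3 iron-repleted rats had the same diet and bleeding and then 3 days of 50 µM ferric ammonium citrate in the drinking water. Belgrade (b/b) rats carry a defective iron importer, DMT1, on a Wistar background, and 4 had a normal diet, 4 were fed iron for 3 days and 3 for 6 days. All the rats were fasted overnight. The age of the Belgrade rats and the amount of iron they were fed are not given in the sources used here. Sections of each end of the villus were pooled for RNA, so each array is a mixture of cell types. A separate Wistar rat gave 1 lower crypt and 1 upper crypt array.

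Control rats 1 and 2 differed from each other by less than other rats of a group, as did Belgrade rats 1 and 2, so each pair was averaged and counted as 1 sample, which left 20 counted samples from 22 rats. Deposited array medians ran from 597 to 1179 intensity units, with the top array of repleted rat 3 the highest. The bottom arrays of control rat 3 and repleted rat 3 had the highest mean log2 level over the 16 smooth muscle and stroma markers, at 15.70 and 15.51, and the lowest over the 12 enterocyte markers, at 13.01 and 12.35. In the other bottom arrays these means ran from 12.74 to 14.81 and from 13.70 to 15.59. All 12 measured enterocyte markers were above the filter level on all 44 villus arrays. The 16 smooth muscle and stroma markers were too, so this level does not tell the cell types apart.

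To show the sequence around the start of members that the results turn on, promoters were taken from RefSeq on build GRCr8, which held an entry for 33 of the 37. Each window runs from 250 bases before the start site to 50 after it. Capitals mark CCGGAAG, the letters of the core bound by ETS factors such as GABP, or GCGCATGC, letters bound by nuclear respiratory factor 1 (NRF1), searched on both strands, so that CTTCCGG and GCATGCGC are their reverse complements. The 200 bases before the start site are printed 5′ to 3′ on the strand of the gene, for Tfam at chr20:17355173-17355372 on the plus strand, Ndufs8 at chr1:210573699-210573898 on the minus strand, Sdhb at chr5:158547734-158547933 on the plus strand and Uqcrc1 at chr8:118468023-118468222 on the plus strand. Tfam and Ndufs8 are shown for their steep decline along the villus, Sdhb as a member that changed little, and Uqcrc1 as the member with the lowest unadjusted p between iron-deficient and control rats.
Tfam: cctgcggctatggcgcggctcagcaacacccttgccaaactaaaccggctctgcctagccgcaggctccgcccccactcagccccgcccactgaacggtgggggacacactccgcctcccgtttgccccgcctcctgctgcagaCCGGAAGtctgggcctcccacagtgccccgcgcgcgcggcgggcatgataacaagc
Ndufs8: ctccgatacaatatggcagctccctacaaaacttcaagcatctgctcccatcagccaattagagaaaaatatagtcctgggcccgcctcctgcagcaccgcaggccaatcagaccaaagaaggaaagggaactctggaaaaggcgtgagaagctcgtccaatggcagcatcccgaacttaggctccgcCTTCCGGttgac
Sdhb: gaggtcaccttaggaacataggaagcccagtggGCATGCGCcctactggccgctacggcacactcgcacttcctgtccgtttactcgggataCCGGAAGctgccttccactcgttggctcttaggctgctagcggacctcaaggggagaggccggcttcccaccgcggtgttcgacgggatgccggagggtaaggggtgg
Uqcrc1: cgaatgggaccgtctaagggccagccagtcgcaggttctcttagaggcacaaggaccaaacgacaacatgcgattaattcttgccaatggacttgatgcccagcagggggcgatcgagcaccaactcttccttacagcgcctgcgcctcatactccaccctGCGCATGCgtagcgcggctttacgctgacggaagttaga
Counted from the start site, the ETS letters begin at -56 in Tfam, -12 in Ndufs8 and -108 in Sdhb, and the NRF1 letters at -167 in Sdhb and -39 in Uqcrc1. They occurred in 11 of 33 members (33.3%), against 8.75% of 33469 RefSeq promoter windows and 10.7% of 21851 windows of protein-coding genes. The NRF1 letters were in 2 of 33 (6.06%), Sdhb and Uqcrc1, against 2.47% and 3.11%. The letters did not separate the members by their course along the villus: 8 of 11 members with the ETS letters and 16 of 22 without them were called lower at the top, with median log2 differences of -0.39 and -0.55.

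Most members were lower at the top of the villus than at its bottom. Each rat's top array was compared with its own bottom array as a difference of log2 normalized intensity, and the equally weighted mean over the 6 groups was tested with limma. A call means a Benjamini-Hochberg adjusted p under 0.05 across the 26517 probe sets. Of the 37 members, 28 fell and 2 rose toward the top, while of all probe sets 54.2% were called, 28.8% lower and 25.5% higher. The members' median difference was -0.54, and that of all probe sets was 0.02. With these quantile-normalized arrays all 20 samples had a members' median below 0. It was below 0 in 17 with each array centred on its median, and in 19 with the values as deposited. Sample counts for single genes below are for quantile-normalized arrays. Centring on the median lowered some of them, to 18 for Ndufv1, 17 for Uqcrfs1 and 13 for Cox5b, while Tfam and Lias kept 20.

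**Figure D1:**
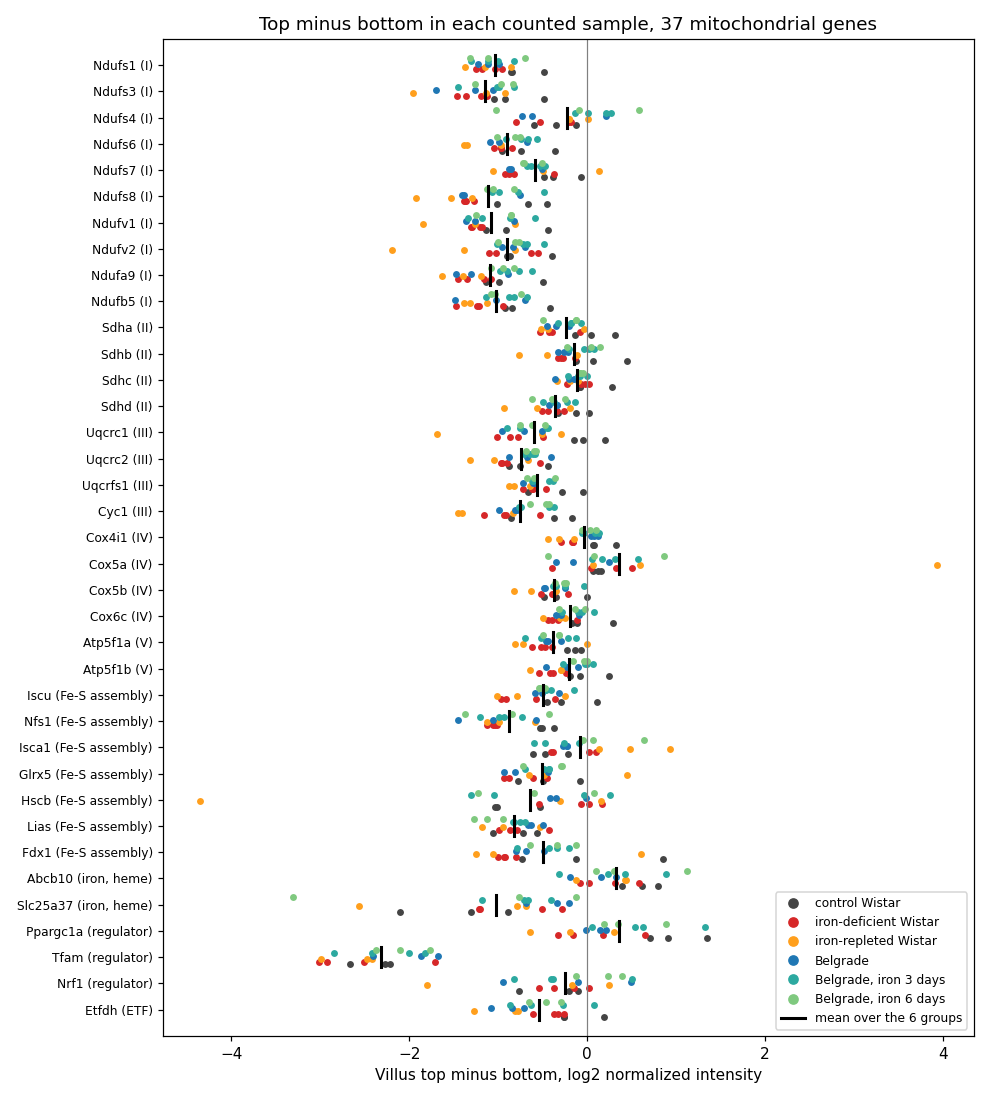
Top minus bottom difference in log2 normalized intensity (x axis) for the 37 members (y axis, with their class), 1 point per counted sample coloured by group and a bar at the mean over the 6 groups. Complex I points lie left of 0 except for Ndufs4 and 1 sample of Ndufs7, complex II and IV points lie nearer to 0, with Cox5b below 0 in 20 of 20 samples, Sdhd in 19 of 20 and Cox5a of repleted rat 3 at 3.93, and the mean of Tfam lies farthest to the left.

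Tfam, which packages mitochondrial DNA and starts its transcription, had the largest decline of the 37. Its difference ran from -3.01 in iron-deficient rat 2 through a median of -2.39 to -1.68 in Belgrade rat 3, so every one of the 20 samples was lower at the top. The mean was -2.31 ± 0.10 (SE; limma, adjusted p = 1.93e-11), a top signal at 20.1% of the bottom signal. In control rats the bottom levels were 13.37, 13.96 and 13.78 (log2, 3 samples) and the top levels were 10.71, 11.69 and 11.57, with no overlap between the segments. The range over all 20 samples was 13.20 to 13.98 at the bottom and 10.71 to 11.88 at the top.

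Complex I, the NADH dehydrogenase, declined most among the respiratory complexes. Its 10 measured subunits had a median difference of -1.02, and 9 were called, all lower at the top. Ndufs1, which carries iron-sulfur clusters of the peripheral arm, ran from -1.37 through a median of -1.07 to -0.48, with a mean of -1.03 ± 0.07 (SE, adjusted p = 7.31e-10). Its highest value, -0.48, came from control rat 3.

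Ndufs3 and Ndufs8, core subunits of the same arm, had mean differences of -1.15 ± 0.08 and -1.11 ± 0.07 (adjusted p = 2.72e-09 and 8.82e-10). Ndufa9, an accessory subunit at the junction of the arms, stood at -1.09 ± 0.07 and Ndufv1, which binds the flavin that takes electrons from NADH, at -1.08 ± 0.08. Ndufb5, of the membrane arm, had -1.02 ± 0.07, and the cluster-binding Ndufv2 had -0.90 ± 0.08. These subunits were lower at the top in 20 of 20 samples. Ndufs6 was also lower in 20 of 20, with -0.90 ± 0.06, and Ndufs7 in 19 of 20, with -0.58 ± 0.08 (adjusted p = 4.91e-06). Ndufs4 had -0.23 ± 0.10 (adjusted p = 0.0576), lower in 14 of 20 samples and not called.

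Complex III, which takes electrons from ubiquinol to cytochrome c, fell in all 4 members, with a median of -0.67. Cyc1, the heme-bearing cytochrome c1, had -0.76 ± 0.07 (adjusted p = 8.49e-08), Uqcrc2, a core protein, -0.74 ± 0.06, and Uqcrc1, the other core protein, -0.60 ± 0.09. Uqcrfs1, the Rieske iron-sulfur protein, ran from -0.88 in repleted rat 3 through a median of -0.61 to -0.04 in control rat 3, with a mean of -0.57 ± 0.06 (adjusted p = 2.94e-07), and was lower at the top in 20 of 20 samples.

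Complex II, succinate dehydrogenase, which belongs to both the respiratory chain and the citric acid cycle, changed less and depended on the scaling of the arrays. Sdhb, its iron-sulfur subunit, ran from -0.77 in repleted rat 3 through a median of -0.17 to 0.45 in control rat 3, with a mean of -0.15 ± 0.06 (adjusted p = 0.0617), and the samples lay on both sides of 0. The flavoprotein Sdha and the membrane anchor Sdhd were called lower, at -0.23 ± 0.06 and -0.37 ± 0.06 (adjusted p = 0.005 and 9.45e-05). Sdhc, the other anchor, had -0.11 ± 0.06 (adjusted p = 0.108). With each array centred on its median instead, Sdha stood at 0.13 and Sdhd at -0.01, neither called, and Sdhc was called higher, at 0.30 (adjusted p = 0.00185). With the values as deposited, Sdha stood at 0.01 and Sdhc again was called higher, at 0.18 (adjusted p = 0.0173).

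Complex IV, cytochrome c oxidase, had a median of -0.11. Cox4i1, a nuclear-encoded core-associated subunit, ran from -0.44 in repleted rat 2 through a median of -0.00 to 0.32 in control rat 3. Its mean was -0.03 ± 0.05 (adjusted p = 0.629), with 10 of 20 samples lower at the top. Cox5b and Cox6c were called lower, at -0.37 ± 0.06 (adjusted p = 5.53e-05) and -0.19 ± 0.06 (adjusted p = 0.0116). Neither was called with median-centred arrays, where they had -0.10 and -0.04. Cox5a had 0.35 ± 0.19 (adjusted p = 0.125), a value that rests on repleted rat 3, at 3.93, and was 0.15 without that rat.

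The ATP synthase subunits of the catalytic head fell less than complexes I and III. Atp5f1a, the alpha subunit, ran from -0.82 in repleted rat 2 through a median of -0.42 to 0.00 in repleted rat 3, with a mean of -0.39 ± 0.07 (adjusted p = 9.95e-05). Atp5f1b, the beta subunit, had -0.20 ± 0.06 (adjusted p = 0.00972). With median-centred arrays they had -0.09 and -0.04 and were not called. The difference between complexes was present in every sample: the complex I median lay below the complex II median, and below the complex IV median, in 20 of 20 samples under each of the 3 scalings. The probe sets also differed in brightness: mean log2 signals spanned 12.17 to 15.11 in complex I, 15.40 to 15.91 in complex II, 15.58 to 15.81 in complex III, 11.57 to 16.65 in complex IV and 15.94 to 16.73 in complex V. All those of complex I lay below those of complexes II, III and V, and the part of brightness in these differences was not tested.

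**Figure D2:**
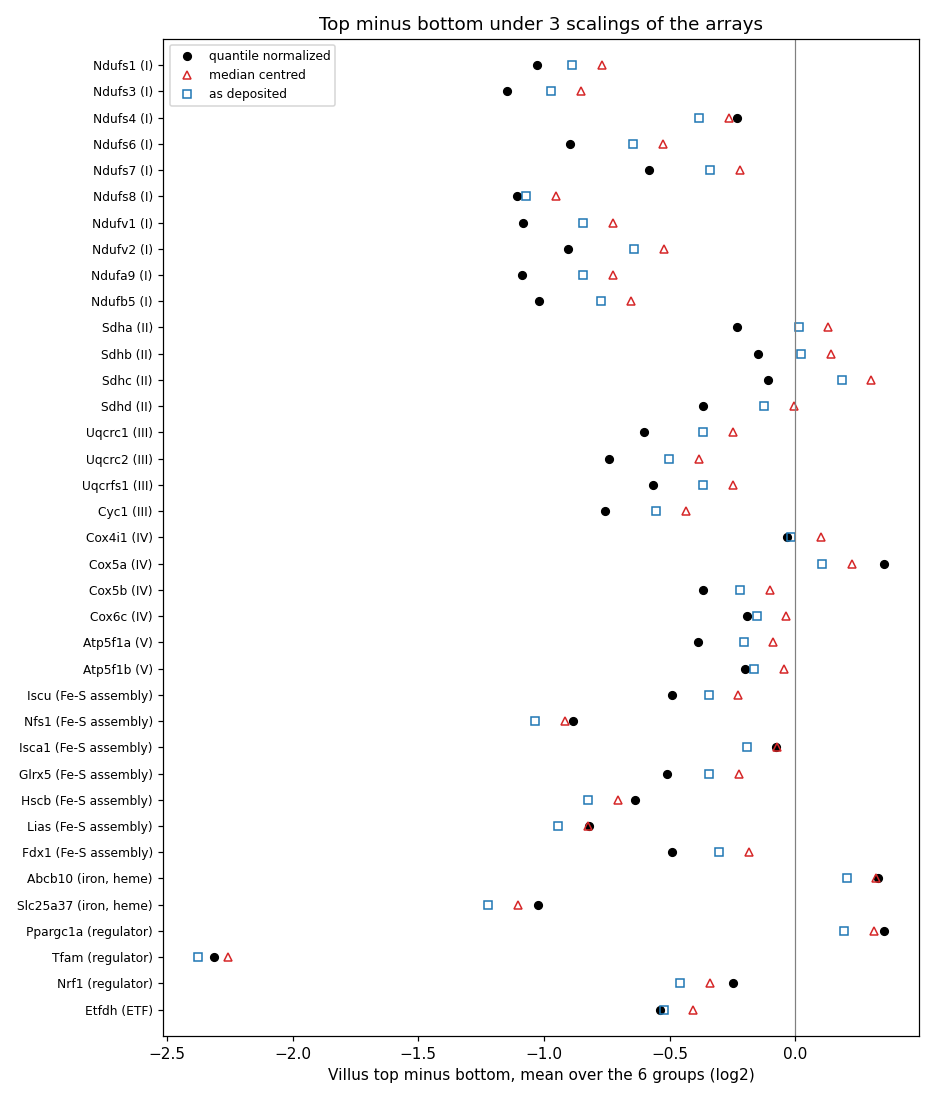
Mean top minus bottom difference over the 6 groups (x axis, log2) for each member (y axis) with quantile-normalized arrays (filled circles), arrays centred on their median (triangles) and values as deposited (squares). Tfam, Nfs1, Lias and complex I keep negative values in all 3, and the complex II points lie on both sides of 0.

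Median centring moved the members as a group toward 0. Their median was then -0.25, with 23 called lower and 3 higher, and without any rescaling of the deposited values -0.37, with 28 lower and 1 higher, against shares of 28.8% and 33.9% lower among all probe sets. The 9 called subunits of complex I, all 4 of complex III, Tfam, Nfs1, Lias, Iscu, Glrx5, Hscb, Slc25a37 and Etfdh kept their direction and their call under these scalings.

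Iron-sulfur assembly genes fell in 6 of 7 cases, with a median of -0.51. Nfs1 ran from -1.45 in Belgrade rat 4 through a median of -0.99 to -0.37 in control rat 3, and its mean was -0.88 ± 0.08 (adjusted p = 3.16e-08). Lias, which makes the lipoyl cofactor and carries iron-sulfur clusters itself, had -0.82 ± 0.06 (adjusted p = 9.60e-09). Both were lower at the top in 20 of 20 samples.

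Iscu ran from -1.01 in repleted rat 3 through a median of -0.47 to 0.11 in control rats 1 and 2, with a mean of -0.49 ± 0.07 (adjusted p = 1.22e-05). Glrx5 ran from -0.93 through a median of -0.49 to 0.45, the last in repleted rat 3, with a mean of -0.51 ± 0.08 (adjusted p = 4.58e-05). Each was lower at the top in 19 of 20 samples. Fdx1, a ferredoxin that carries electrons, had -0.49 ± 0.12 (adjusted p = 0.00204) and was not called with median-centred arrays, at -0.19. Hscb, a co-chaperone of the scaffold, had -0.64 ± 0.22 (adjusted p = 0.0235), with repleted rat 3 at -4.35. Without that rat it had -0.40 (adjusted p = 0.00851). Isca1 had -0.08 ± 0.08 (adjusted p = 0.414).

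The mitochondrial iron importer Slc25a37 was lower at the top in 20 of 20 samples. It ran from -3.31 in rat 3 of the Belgrade group fed iron for 6 days through a median of -0.74 to -0.13, with a mean of -1.02 ± 0.18 (adjusted p = 0.000124). This gene had a dim probe set, above the filter level on 40 of 44 arrays. Abcb10, an inner membrane transporter that supports heme synthesis, rose toward the top by 0.33 ± 0.10 (adjusted p = 0.00747), and in 16 of 20 samples. Etfdh, the iron-sulfur flavoprotein that feeds electrons from fatty acid oxidation into ubiquinone, fell by 0.54 ± 0.07 (SE, adjusted p = 8.09e-06).

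Among the regulators, Ppargc1a, the coactivator PGC-1α, went the other way from Tfam. It ran from -0.64 in repleted rat 3 through a median of 0.26 to 1.35 in control rat 4, with a mean of 0.35 ± 0.10 (adjusted p = 0.00649), higher at the top in 15 of 20 samples. In control rats it was 11.91, 10.64 and 11.10 at the bottom and 12.61, 11.55 and 12.45 at the top. With the values as deposited neither Ppargc1a (0.20, adjusted p = 0.0939) nor Abcb10 (0.20, adjusted p = 0.0841) was called. Of the 3 probe sets of Ppargc1a, the others gave 0.75 (adjusted p = 0.00452) and 0.14 (adjusted p = 0.417). Abcb10, Ndufa9, Sdhd, Uqcrc2, Isca1 and Fdx1 had 2 probe sets each and Nrf1 had 3. Their probe sets other than the brightest are not reported here. Nrf1, the transcription factor, had -0.25 ± 0.13 (adjusted p = 0.128).

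Other genes of the same pathways, from the lists given next, mostly fell as well. These lists were chosen by function but with earlier results of these data known, so they are not independent support. Of 24 further complex I genes measured, 22 fell toward the top and none rose at adjusted p under 0.05, with a median of -0.73. Of 28 further genes of complexes III, IV and V and their assembly, 21 fell and 0 rose, with a median of -0.45. Of 22 further iron-sulfur genes, 17 fell and 0 rose, with a median of -0.63. Of 20 genes of mitochondrial DNA upkeep, transcription, import and protein folding, 18 fell and 0 rose, with a median of -1.12. Of all probe sets 28.8% were called lower and 25.5% higher.

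The largest declines by adjusted p were those of the chaperones Hspe1, at -2.59 ± 0.13, Hspd1, at -2.33 ± 0.11, and Hspa9, which works with the iron-sulfur scaffold, at -1.93 ± 0.09. Of 13 citric acid cycle genes 7 fell and 3 rose, beside 28.8% of all probe sets called lower and 25.5% called higher. The 3 that rose were citrate synthase, Cs, at 0.88 ± 0.07, Ogdh, a subunit of the oxoglutarate dehydrogenase complex, at 0.63 ± 0.06, and malate dehydrogenase, Mdh2, at 0.47 ± 0.10.

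Markers of several cell types moved along the same axis, where 28.8% of all probe sets were called lower at the top and 25.5% higher. All 15 measured markers of cycling cells were lower at the top (median -2.88), 11 of 12 enterocyte markers were higher (median 1.99), and for smooth muscle and stroma 9 of 16 were called lower (median -0.74). Of 15 immune markers 11 were called higher and 3 lower (median 1.00), and of 8 goblet cell markers 1 was called higher and 4 lower (median -0.40). Of 14 exocrine pancreas markers 4 were called lower (median -1.10), and their mean was 11.93 to 15.74 in 6 bottom arrays against 7.62 to 8.43 in the others. The 6 belonged to control rats 1 and 2, iron-deficient rat 1, Belgrade rat 3, and rat 4 and rat 2 of the groups fed iron for 3 and 6 days. The top arrays of control rats 1 and 2 had 10.95 and 11.05. In these mixed samples a lower share of a cell type and less RNA per cell cannot be told apart, and the part of cell composition in the members' decline was not tested. Without control rat 3 and repleted rat 3, whose bottom arrays were richest in smooth muscle and stroma signal, 30 members fell and 2 rose, with a median of -0.58. The share of all probe sets called without these rats is not given here, so these counts cannot be set against it.

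The crypt arrays, with 1 array each and no replicate, are given as values with no test. Of the 37 members, 25 had a higher log2 level in the lower than in the upper crypt, against 49.5% of all probe sets, with a median difference of 0.20. All 10 complex I subunits were higher in the lower crypt (median 0.40) and all 4 complex II subunits were lower (median -0.25). Under median centring 9 of the 10 complex I subunits were higher in the lower crypt and 0 of the 4 complex II subunits, while over all members the count was 18 of 37.

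Tfam was 13.44 in the lower crypt and 11.79 in the upper crypt. Both lay between the control villus means of 13.70 at the bottom and 11.32 at the top. Nfs1 was 13.01 and 12.12 in the crypt arrays, and Slc25a37 was 10.23 and 9.45. Ppargc1a was 12.72 and 13.30, both above the control bottom mean of 11.22 and the control top mean of 12.20. The upper crypt array had a cycling marker mean of 10.91 and an enterocyte marker mean of 16.55, and the lower crypt array had 12.58 and 15.26. Of the villus arrays, the top arrays had 9.08 to 11.34 and 16.00 to 17.02 for the same means, so on these markers the upper crypt array lay among the top arrays. The bottom arrays had 12.20 to 13.09 and 12.35 to 15.59, so the lower crypt array lay among the bottom arrays.

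**Figure D3:**
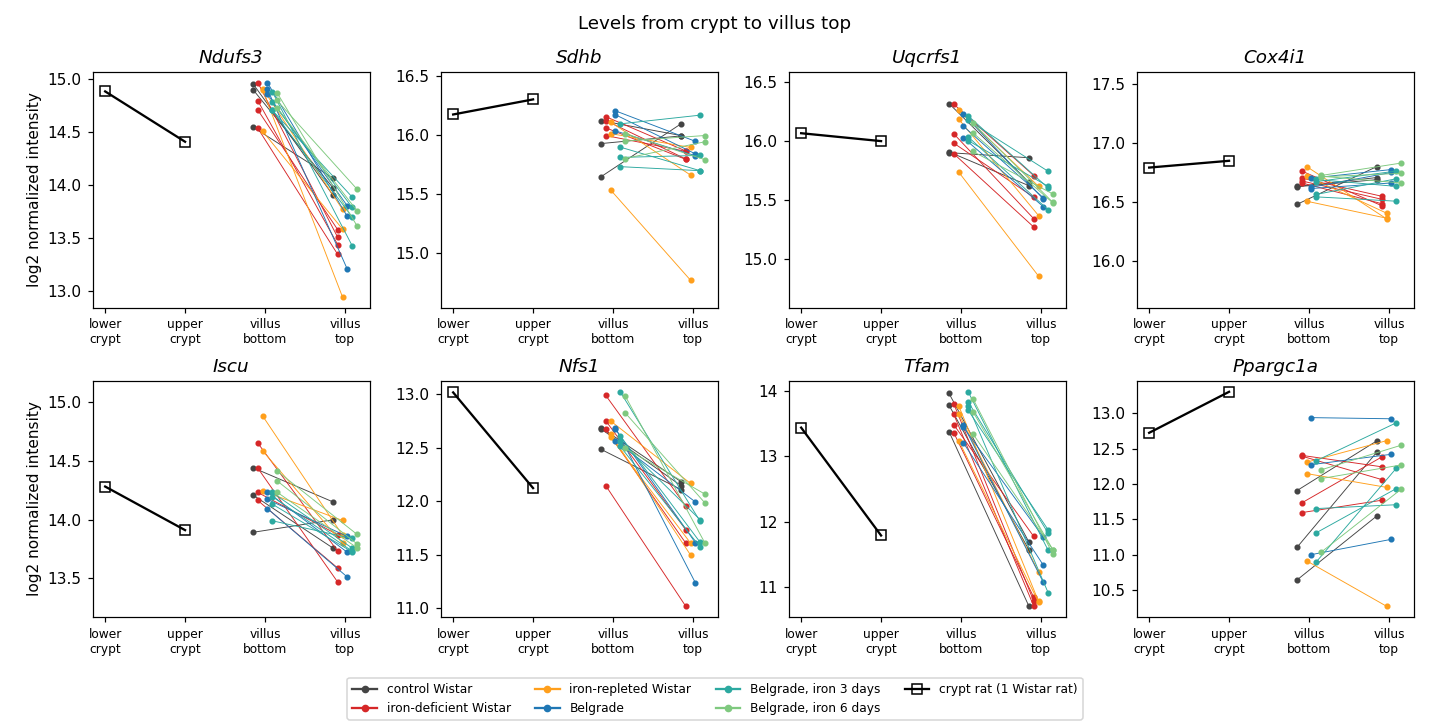
Log2 normalized intensity (y axis) of 8 members in the lower and upper crypt arrays of 1 rat (squares) and in the villus bottom and top of each counted sample (points joined by lines, coloured by group). Ndufs3, Nfs1 and Tfam drop from bottom to top in every sample, Cox4i1 has 10 of 20 samples on either side of no change, and Ppargc1a rises in 15 of 20.

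The iron comparisons gave no member past the threshold. The study compares iron-deficient with control Wistar rats, repletion with deficiency, and Belgrade rats with both, and the level tested here was each rat's mean of top and bottom. Between iron-deficient and control rats 0 of 37 members were called, beside 0.404% of all probe sets, with 7 members at unadjusted p under 0.05. Between repleted and control rats 0 were called, beside 0.0679%, with 8 members at unadjusted p under 0.05. Between Belgrade and control rats 0 were called, beside 0.0113%, with 2 members at unadjusted p under 0.05. At that unadjusted p the shares of all probe sets were 14.1%, 15.1% and 6%.

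The further comparisons also gave 0 called members in limma. For repleted against iron-deficient rats (0% of all probe sets called) 5 members had unadjusted p under 0.05, beside 12.8% of all probe sets. For Belgrade against iron-deficient rats (0% called) it was 0 members, beside 4.6% of all probe sets. For Belgrade rats fed iron for 3 days against unfed ones (0% called) it was 0, beside 2.76%, and for 6 days of iron (0% called) it was 2, beside 4.22%. Between iron-deficient and control rats, changes of a size of 0.5 would mostly have been missed. In data simulated for that comparison, among the brightest 20% of the 26517 probe sets, 1.5% of those shifted by 0.5 log2 were recovered. The share was 64% of those shifted by 1 and 96.5% of those shifted by 2. The other iron comparisons were not simulated. Of the 37 members, 32 lie among that brightest 20%.

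**Figure D4:**
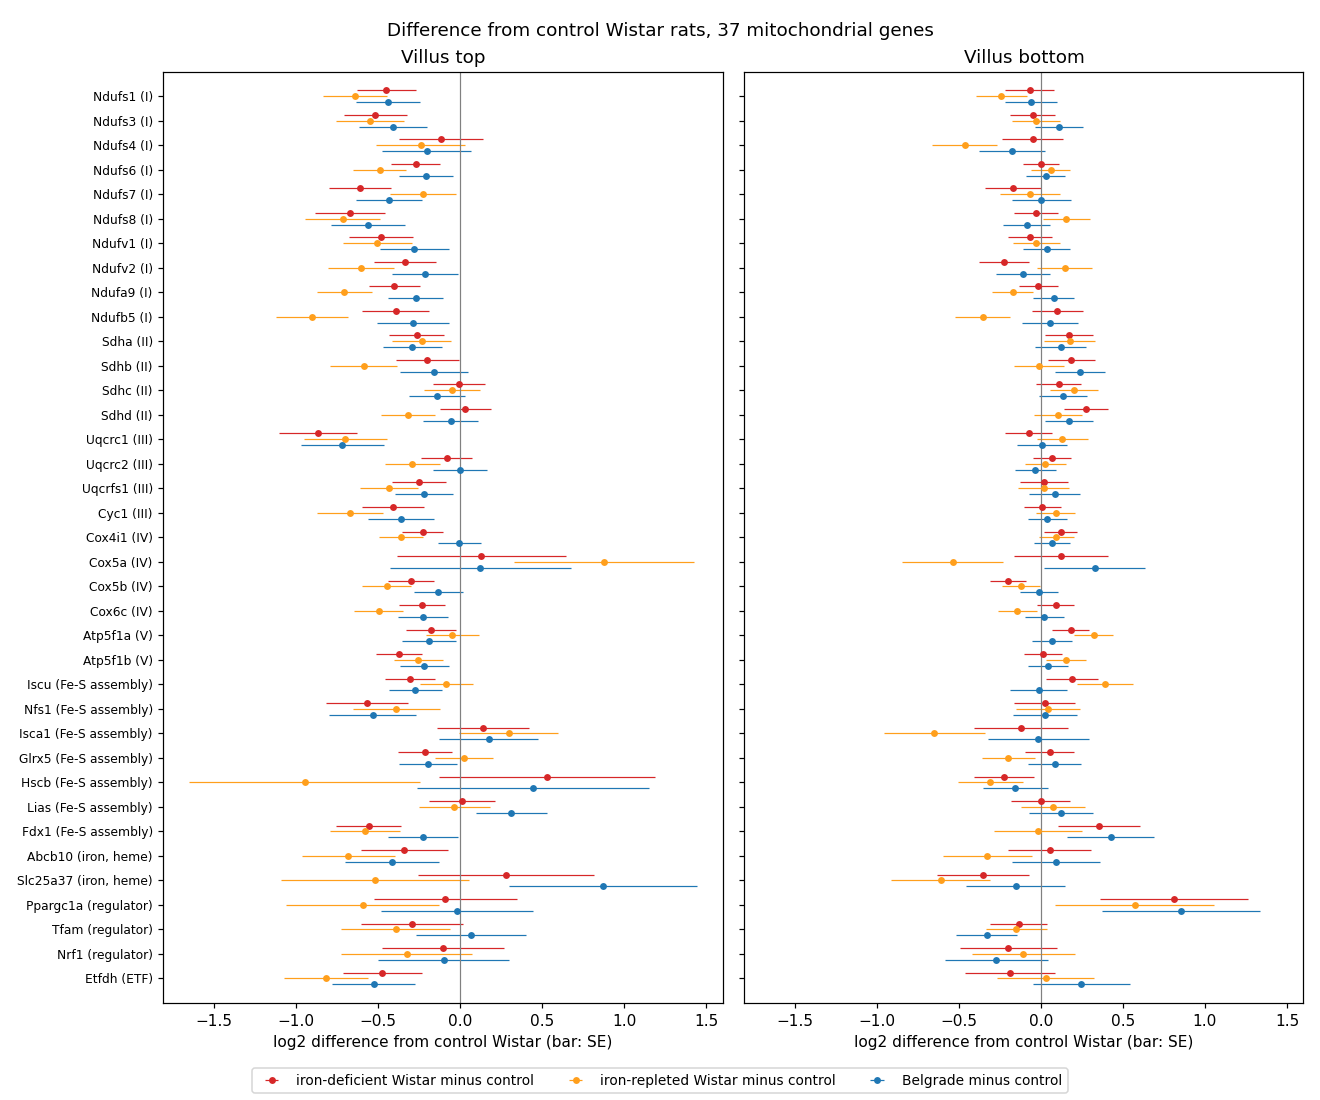
Difference from control Wistar rats (x axis, log2, bars are SE) for each member (y axis) in iron-deficient, iron-repleted and Belgrade rats, at the villus top (left) and bottom (right). At the top most points lie left of 0 and at the bottom they lie on both sides, and no member passed the adjusted threshold in either panel.

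At the villus top the members leaned lower in iron-deficient rats, without any call. The members' median there was -0.27, with 31 of 37 below 0 and 12 at unadjusted p under 0.05, beside 12.5% of all probe sets, and 0 members were called beside 0.977% of all probe sets. At the bottom the median was 0.01, with 0 called and 0% of all probe sets called. All 10 complex I subunits were lower in iron-deficient than in control tops, with a median of -0.42. Marker means of the same top arrays also differed: enterocyte means were 16.10 to 16.54 in iron-deficient and 16.60 to 17.02 in control rats, immune means 11.08 to 11.34 and 11.64 to 11.97, and red blood cell means 10.15 to 12.66 and 9.62 to 10.40. The enterocyte and immune ranges did not overlap. Exocrine pancreas means were 7.60 to 8.40 in iron-deficient and 8.15 to 11.05 in control tops. The part of these cells in the members' values was not tested. For the members' median and their count below 0, no value over all probe sets is given here. The same holds for the repleted and Belgrade tops below, and a shift shared with other probe sets was not tested.

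Uqcrc1 had the lowest p of the members in this comparison. Its top levels were 15.97, 15.90 and 15.71 in control samples and 14.69, 14.78, 14.86 and 15.68 in iron-deficient rats 1 to 4. The groups did not overlap, and iron-deficient rat 4 lay next to the controls. The difference was -0.86 ± 0.24 (SE; limma, adjusted p = 0.0825). In the mean of both segments it was -0.47 ± 0.16 (adjusted p = 0.168), and it was called, at -0.65 (adjusted p = 0.0314), only when iron-deficient rat 4 was left out or, at -0.50 (adjusted p = 0.049), with a replicate block over all 22 rats. Over all probe sets these settings gave 170 and 1313 calls, against 107 in the main test. The setting with the block counts near-identical rats separately. The bottom levels of Uqcrc1 were 16.02, 15.71 and 15.87 in control and 15.46, 15.79, 15.73 and 16.18 in iron-deficient rats, which overlapped.

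Repleted rats had lower member signals at the top than control rats, again without a call after adjustment. The median was -0.44, with 34 of 37 below 0 and 18 at unadjusted p under 0.05, beside 15.4% of all probe sets, and 0 were called beside 0.207%. Ndufa9 at the top was 14.43, 14.74 and 14.35 in control samples and 13.87, 13.73 and 13.82 in repleted rats. The groups did not overlap, and the difference was -0.70 ± 0.17 (adjusted p = 0.0622). Ndufb5 at the top was 14.77, 15.13 and 14.79 against 14.42, 14.06 and 13.51, also without overlap, a difference of -0.90 ± 0.22 (adjusted p = 0.0682). Goblet cell marker means were 13.94 to 14.15 in repleted tops and 14.31 to 14.80 in control tops, without overlap. The ranges of the other marker lists overlapped, and the part of these cells was not tested.

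Under median centring 6 members were called lower in repleted tops, all of complex I, beside 1.59% of all probe sets. They were Ndufs1, Ndufs3, Ndufs8, Ndufv1, Ndufa9 and Ndufb5. The top array of repleted rat 3 had the highest deposited median of all arrays. Its signal was 13.82 for Ndufa9 and 13.28 for Ndufs1 with quantile normalization, and 12.91 and 12.36 with median centring. The spread of log2 differences between this rat and the other repleted rats was 0.68 to 0.73. With quantile normalization this rat held the lowest top level for 11 of the 37 members and the highest for 5. Repleted rat 2 likewise held the lowest top level for 11, and control rat 3 the highest for 11.

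In Belgrade tops 30 of 37 members lay below control, with a median of -0.21 and 4 at unadjusted p under 0.05, beside 6.56% of all probe sets, and 0 were called beside 0.0905% of all probe sets. These 4 were Ndufs1, Ndufs7, Ndufs8 and Uqcrc1, at -0.44 ± 0.19, -0.43 ± 0.20, -0.56 ± 0.23 and -0.72 ± 0.25. Marker means of these tops differed from control tops as well. Immune means were 10.95 to 11.59 in Belgrade and 11.64 to 11.97 in control tops. Goblet cell means were 14.99 to 15.71 and 14.31 to 14.80, and red blood cell means 10.79 to 11.89 and 9.62 to 10.40. These ranges did not overlap, those of the other marker lists did, and the part of these cells was not tested. The iron-deficient, repleted and Belgrade comparisons share the control samples, so their like signs are not independent. At the bottom the Belgrade median was 0.04, with 0 called beside 0.00377%.

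The steepness of the villus decline was compared between groups through the difference of differences. Within groups, the members' median top minus bottom was -0.36 in control, -0.70 in iron-deficient, -0.68 in repleted and -0.59 in unfed Belgrade samples, and -0.51 in both groups of Belgrade rats fed iron for 3 and for 6 days. The members called lower numbered 23 of 37 in iron-deficient rats, beside 29.5% of all probe sets called, 23 in repleted rats, beside 32.5%, and 18 in unfed Belgrade rats, beside 16.7%. In Belgrade rats fed iron they numbered 17 after 3 days, beside 25.4%, and 16 after 6 days, beside 22.7%. In the same order 0, 1, 0, 1 and 0 members were called higher. The shares of all probe sets beside these counts hold both directions together. None of the 5 tests of these differences called a member: for iron-deficient against control rats (0% of all probe sets called) and Belgrade against control rats (0%) the medians were -0.35 and -0.27, with 5 and 3 members at unadjusted p under 0.05, beside 9.04% and 6.45% of all probe sets. For repleted against iron-deficient rats (0.00377% of all probe sets called), and for iron feeding of 3 days (0%) and of 6 days (0%), the medians were -0.09, 0.15 and 0.12, with 4, 0 and 1 members at unadjusted p under 0.05, beside 10.7%, 2.54% and 3.73%.

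The control value depends on the scaling: within the control group 12 members fell and 1 rose with quantile-normalized arrays, beside 24.2% of all probe sets called, but 3 fell and 5 rose with median-centred arrays, where the median was 0.10 and 23% of all probe sets were called. Smooth muscle and stroma means ran from 13.23 to 15.70 in control bottoms, 12.81 to 13.26 in iron-deficient bottoms and 13.27 to 15.51 in repleted bottoms, and enterocyte means from 13.01 to 15.22, 14.75 to 15.08 and 12.35 to 15.53. The part of cell makeup in the group differences was not tested. Control rat 3 had the highest top minus bottom value of all 20 samples for 22 of the 37 members.

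The iron-sulfur assembly genes gave no call by iron status in any segment. In iron-deficient against control rats their median was -0.06 over both segments. Iscu was 14.00, 14.15 and 13.76 at the top of control samples and 13.59, 13.47, 13.87 and 13.73 in iron-deficient rats, which overlapped. Nfs1 was 12.14, 12.11 and 12.18 against 11.02, 11.61, 11.73 and 11.96, which did not overlap, a difference of -0.57 ± 0.25 (adjusted p = 0.329). Glrx5 was 13.85, 14.19 and 13.93 against 13.64, 13.65, 14.04 and 13.78, which overlapped.

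The regulators showed wide spread between rats. Ppargc1a at the bottom was 11.91, 10.64 and 11.10 in control samples, 11.73, 12.39, 11.60 and 12.40 in iron-deficient rats, 12.31, 12.15 and 10.91 in repleted rats and 12.27, 11.00 and 12.94 in Belgrade samples. The groups overlapped. The lowest values of the control, repleted and Belgrade samples came from rat 3 of each, whose bottom arrays had smooth muscle and stroma means of 15.70, 15.51 and 13.93. The lowest iron-deficient value also came from rat 3, whose mean, 12.81, was the lowest of its group, and the part of that signal was not tested. Tfam at the bottom was 13.20, 13.44 and 13.47 in unfed Belgrade samples and 13.83, 13.70, 13.76 and 13.98 after 3 days of iron. These did not overlap, and the difference was 0.45 ± 0.17 (adjusted p = 0.9997).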

How the data were processed

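The deposited values were 1 linear intensity per probe set and array, made by the authors with an algorithm not given in the sources used here; per the labels, RNA was labelled by the standard Affymetrix protocol. The array median of deposited intensity ran from 597 to 1179. The mean after trimming 2% at each end was 2484 to 2492 on all arrays but those of control rat 3 and of rat 3 of the Belgrade group fed iron for 3 days, at 2861 to 2866, a difference that the alternative of values as deposited keeps. The number of arrays limits the precision. A pseudocount of 43.5 was added, log2 values were quantile normalized, and 57 control probe sets and dim ones were left out. Near-identical rats, with a spread of log2 differences of 0.137 to 0.172 against 0.221 to 0.726 in other pairs, were averaged. Tests used limma 3.58.1 in R 4.3.3 and the data.table package (1.17.8), after checks on simulated data, with Benjamini-Hochberg adjustment over all probe sets. Top and bottom arrays of a rat were paired by their labels. With group means removed, the top of 17 of 22 rats correlated best with its own bottom. Across groups rats share only a number: of 15 group pairs, 0 had every same-numbered pair of rats correlate over 0.1. Nothing in the labels says more about how the rats are related, so p-values measure the spread between these samples.

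Alternatives were median centring, values as deposited, other pseudocounts, no filter, all 22 rats counted separately, no intensity trend, Xist as a covariate, a replicate block, each rat left out, and, chosen after seeing the data, control rat 3 and repleted rat 3 left out together. The members and gene lists were chosen with earlier results of these data known. Each gene was read from its brightest probe set. Values per rat were to be given for at most 8 called members per comparison, by adjusted p and spread over classes, and always for Ndufs1, Sdhb, Uqcrfs1, Cycs, Cox4i1, Atp5f1a, Iscu, Nfs1, Glrx5, Slc25a37, Ppargc1a and Tfam, and other pathway genes were named only if called, at most 3 per comparison and direction. Other members are named to account for the whole list.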

Additional observations from a re-analysis of the deposited data

Results flagged for a closer look

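In groups of 4 samples, 6 of 148 values of members had a sample far from the others of its group by Dixon's test, a rule by which chance picks about 1 in 20 groups. In Belgrade rats fed iron for 3 days, Cox5a had a mean level of 11.20 in rat 2, against 11.80 to 11.92 in the others. Cox5b was 15.85 in rat 4 of that group, against 16.07 to 16.10. Ppargc1a was 12.60 in the same rat, against 11.56 to 11.68, and Tfam was 12.34 in rat 3, against 12.77 to 12.83. In iron-deficient rats the top minus bottom difference of Uqcrc2 was -0.53 in rat 3, against -0.97 to -0.90, and that of Cox4i1 was -0.29 in rat 2, against -0.18 to -0.15. These are log2 values, and no cause was tested.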

How the results depend on the processing

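Of the 30 members called between top and bottom, 20 kept their direction and their call under every alternative run. The count was 26 with median centring, 29 with the values as deposited and 26 with Xist as a covariate. It was 30 without the replicate block between top and bottom, and 30 to 32 when any 1 rat was left out. Of all probe sets 54.9% were called with median centring and 55.5% with the values as deposited, against 54.2% with quantile normalization. Leaving out 1 rat gave 13793 to 14577 called probe sets. Calls over all probe sets with Xist as a covariate and without the replicate block are not given here. Sdha turned from a negative difference to 0.13 with median centring and 0.013 with the values as deposited, and Sdhc to 0.30 and 0.18; the cause was not tested. For iron-deficient against control rats, with 0 members called, 1 was called (Uqcrc1) with all 22 rats and a replicate block, where 1313 probe sets were called in all against 107, and 0 to 1 when any 1 rat was left out, the 1 without iron-deficient rat 4. For repleted against control rats the count rose from 0 to 2 (Ndufa9 and Ndufb5) with all 22 rats counted separately and to 4 (with Ndufs1 and Abcb10) with a replicate block, where all called probe sets rose from 18 to 606 and 1605, and leaving out 1 rat gave 0 to 1, the 1 being Ndufb5 without repleted rat 1. Both of these alternatives count near-identical rats separately. Over all probe sets, leaving out 1 rat gave 0 to 473 calls for iron-deficient against control rats and 0 to 290 for repleted against control rats. Array signal limits the dimmest members, such as Slc25a37.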
